A study of Mus musculus with 14 samples.

Results

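The Hsp70, Hsp90 and DnaJ chaperones of the left ventricle were compared between WT and HCN4F mice after Sham surgery or transverse aortic constriction (TAC). The genes were taken by name: rows whose symbol starts with Hspa or Hsp90a, or with Dnaja, Dnajb or Dnajc and a number, together with Hspd1, Hspe1 and Hsph1, but without Hspa5 and pseudogenes. Of 49315 rows in the table of counts, 62 matched, and 56 of them had 10 or more counts in at least 2 libraries, as did 15498 rows in all. The rule itself uses names and a minimum count. The 6 genes left out, Dnajb7, Dnajb8, Dnajc5b, Dnajc5g, Dnajc6 and Dnajc22, had at most 7 counts in any library. Of the 56, Dnajb3 did not pass the filter on low counts for the test, so that 55 were tested among 15292 genes.

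HCN4F mice carry a knock-in exchange of an amino acid in the pacemaker channel gene Hcn4, a gain of function that is present in every cell of the animal. WT animals have the unchanged gene. Male mice of both genotypes were operated at 10 to 12 weeks of age, with a band that narrows the aorta (TAC) or with the same surgery without the band (Sham), and hearts were collected 5 weeks later. Polyadenylated RNA of left ventricular tissue was sequenced, with n = 4 in WT-Sham, HCN4F-Sham and HCN4F-TAC. WT-TAC has n = 2, its replicates 2 and 3, and what else the group held was not used here. The study describes the samples as biological replicates.

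Hsp70 proteins bind exposed hydrophobic stretches of client proteins and release them in a cycle driven by ATP. DnaJ proteins bring clients to Hsp70 and start ATP hydrolysis, Hsp110 proteins exchange the nucleotide, and Hsp90 takes over clients such as kinases and steroid receptors for final folding. In heart muscle these chaperones serve the assembly and repair of the sarcomere. A part of them is present in all cells at all times, while another part is transcribed within minutes of heat or proteotoxic stress through the heat shock factor HSF1 and its binding site, the heat shock element.

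Between 22309914 and 35210939 counts per library fell on genes, with a median of 27676182, and the 56 chaperones took 0.509% to 0.720% of them. A count of 0 allows up to 3 counts, or 0.0852 to 0.134 CPM (counts scaled to a common library size), a limit that covers counting error only. Ventricular cardiomyocyte markers (Myh6, Tnnt2, Tnni3, Actn2, Ryr2, Pln and Myl2) summed to 59068 to 61603 CPM in WT-Sham, 53369 to 56745 CPM in HCN4F-Sham, 54030 to 55839 CPM in WT-TAC and 41460 to 49671 CPM in HCN4F-TAC. The 4 atrial markers summed to 1.24 to 5.04 CPM, except in HCN4F-TAC replicate 2 with 31.1 CPM, and the 3 adipocyte markers to at most 0.452 CPM. The summed fibroblast markers ranged from 622 to 813 CPM in both Sham groups, from 616 to 733 CPM in WT-TAC and from 775 to 1270 CPM in HCN4F-TAC. Whether a difference in such bulk tissue comes from the number of cells of a type or from the RNA in each cell cannot be told apart. WT-Sham replicate 3 stood apart from the other libraries of its group among the chaperones: it was the highest of the 4 for 32 of 55 members (58.2%), against 28.8% of all tested genes. For the members that moved most with it, values without this library are given beside the results.

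**Figure D1:**
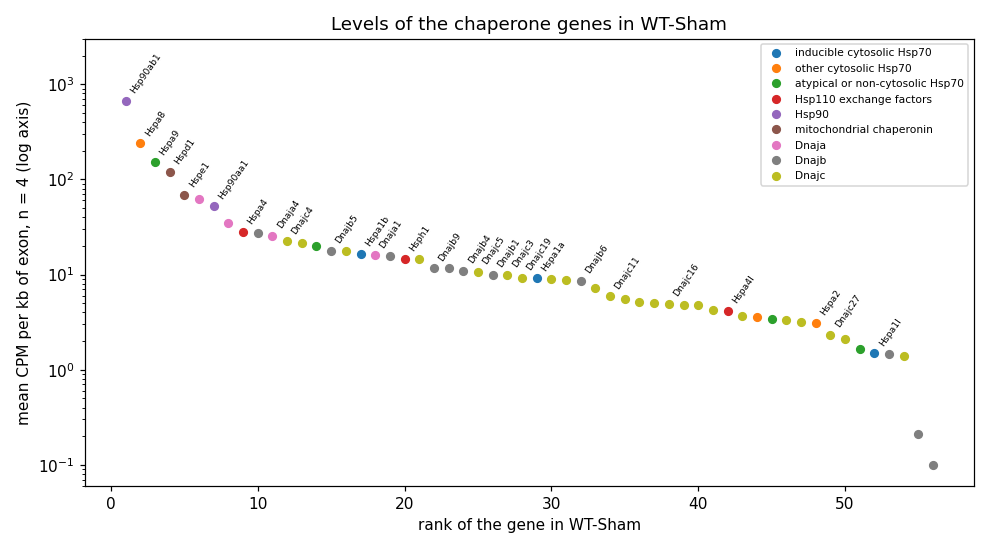
Mean level of the 56 chaperone genes in WT-Sham (n = 4), in CPM per kb of exon on a log axis, against their rank. Colours mark the role of a gene, and the genes named in the text are labelled. Hspa1l is coloured with Hspa1a and Hspa1b, whose locus it shares. Hsp90ab1 stood at 670 CPM per kb and Dnajb13 at 0.0984 CPM per kb.

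In WT-Sham a few constitutive chaperones held most of the messenger RNA. Per kb of exon, Hsp90ab1, the constitutive cytosolic Hsp90, had the highest level with 670 ± 54.0 CPM per kb (SD, n = 4). It was followed by Hspa8, the constitutive cytosolic Hsp70, with 239 ± 26.4 CPM per kb and by Hspa9, the mitochondrial Hsp70, with 151 ± 7.96 CPM per kb. Hspd1 and Hspe1, which form the chaperonin of the mitochondrial matrix, came next with 120 ± 8.09 and 69.2 ± 4.40 CPM per kb. The highest DnaJ gene was Dnaja2 with 61.6 ± 3.61 CPM per kb. As counts, Hsp90ab1, Hspa8 and Hspa9 together took 52.3% to 56.6% of all chaperone CPM in every one of the 14 libraries. The inducible genes Hspa1b and Hspa1a had means of 16.5 ± 19.1 and 9.08 ± 9.62 CPM per kb, with SDs larger than their means. Hspa1l, the third gene of the same locus, stood at 1.49 ± 0.255 CPM per kb, and only Dnajb14, Dnajc12, Dnajb3 and Dnajb13 were lower among the 56.

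Promoter sequences are shown for chaperones whose levels the results turn on, and for the mitochondrial chaperonin pair as genes that hardly moved. RefSeq promoter windows (assembly GRCm38.p6, 250 bases before and 50 after a transcript start) were given for 49 of the 62 genes. The core of a heat shock element is a pair of inverted units, GAANNTTC or TTCNNGAA, each of which reads the same on both strands. It was found in the windows of 12 of the 49 genes (24.5%) and in 17% of the 27025 RefSeq genes with a window. A run of 3 units, GAANNTTCNNGAA or TTCNNGAANNTTC, which contains the shorter motif, was found in 4 of the 49 (8.16%: Dnajb6, Hspd1, Hspe1 and Hsph1) and in 0.662% of all genes. These shares are a description of letters in the windows, with no test. Dnajb1 and Hspa1l had no match in their windows, and Hspa8, Hsp90aa1 and Hsp90ab1 had no window. The stretches below are written 5′ to 3′ along the gene, with the matched units in capitals.
Hspa1a (chr17:34972217-34972296, minus strand): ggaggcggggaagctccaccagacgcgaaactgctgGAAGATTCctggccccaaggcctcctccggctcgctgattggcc
Dnajb4 (chr3:152193846-152193925, minus strand): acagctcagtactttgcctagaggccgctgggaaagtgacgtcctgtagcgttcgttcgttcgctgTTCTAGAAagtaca
Hsph1 (chr5:149636351-149636380, minus strand): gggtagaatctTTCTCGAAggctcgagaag
Dnaja1 (chr4:40722333-40722362, plus strand): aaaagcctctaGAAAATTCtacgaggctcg
Dnaja4 (chr9:54699496-54699525, plus strand): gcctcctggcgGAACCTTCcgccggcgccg
Dnajb6 (chr5:29735843-29735872, plus strand): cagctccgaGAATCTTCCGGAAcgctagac
Hspe1 (chr1:55088053-55088082, plus strand): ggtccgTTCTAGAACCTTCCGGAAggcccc
The matched bases lay 104 to 97 bases before the start in Hspa1a and 14 to 7 bases before it in Dnajb4. The 80 bases shown for Hspa1a occur letter for letter in front of Hspa1b, at chr17:34959299-34959378, and the windows of both genes share 296 of 300 bases. Hspd1 and Hspe1 are transcribed away from each other, and the stretch of Hspe1 is the reverse complement of the one in front of Hspd1, so that both windows hold the same run of units. Dnajb6 and Hspe1 carry the longer run, and in Hsph1 it lies outside the stretch shown.

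**Figure D2:**
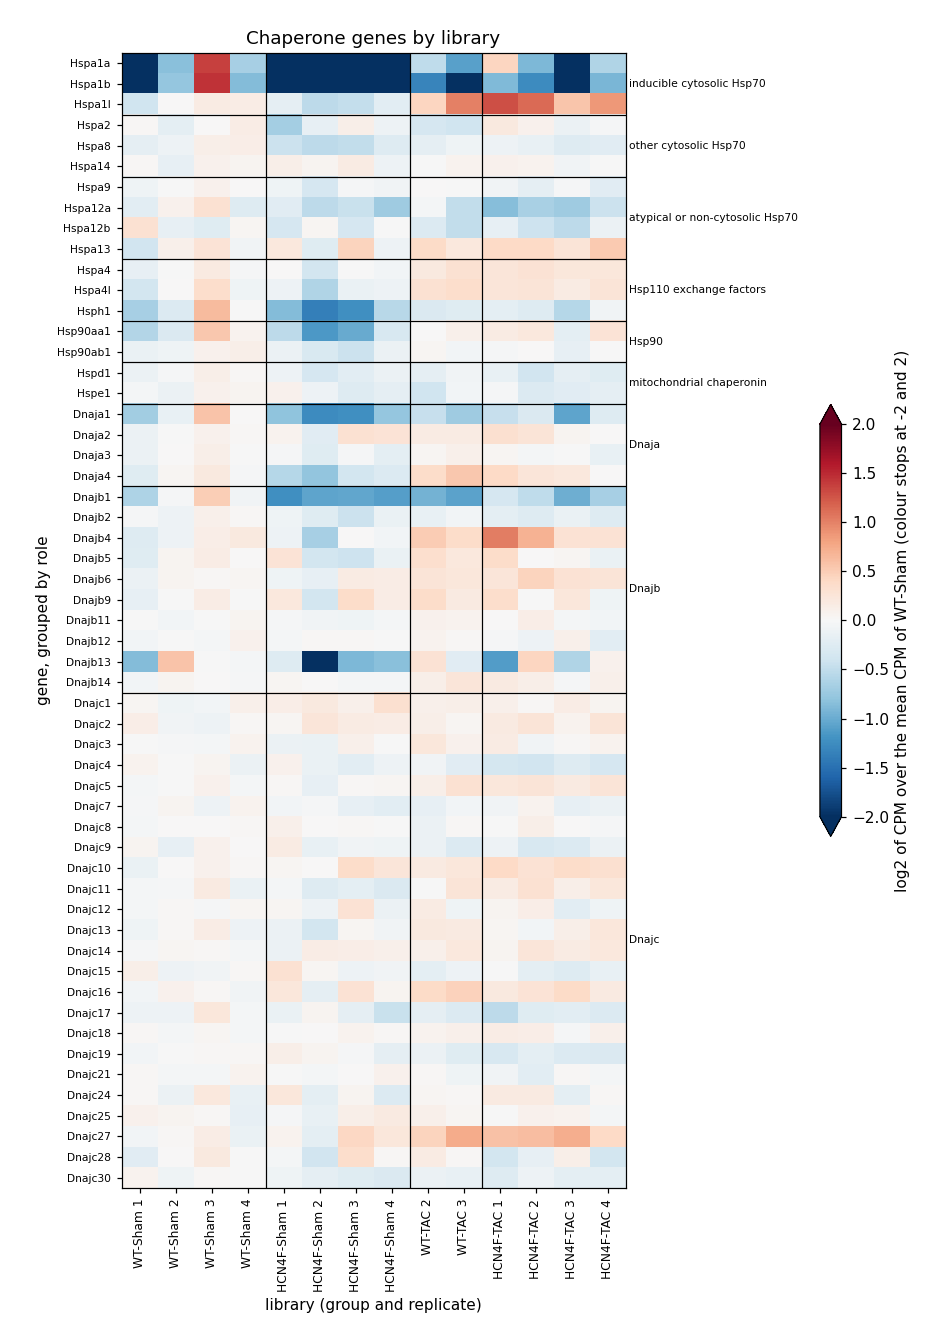
Level of the 55 tested chaperones in each of the 14 libraries, as log2 of the CPM over the mean CPM of WT-Sham. Rows are genes grouped by role and columns are libraries grouped by group. Hspa1l is drawn with Hspa1a and Hspa1b, whose locus it shares. Most rows stayed pale, while Hspa1a, Hspa1b, Hsph1, Hsp90aa1, Dnaja1 and Dnajb1 were blue in HCN4F-Sham and most red in WT-Sham replicate 3. That replicate also raised the WT-Sham mean used as reference: Hspa1b had 125 CPM in it and a mean of 46.3 CPM. Blue was thus not confined to HCN4F-Sham. Hspa1b lay below the reference in every library except WT-Sham replicate 3, and Dnajb1 lay below it in every TAC library. The colour stops at -2 and 2, and 14 of 770 values lay below -2 and 0 above 2.

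The first comparison asked whether chaperone levels differed between the genotypes without pressure overload. Dnajb1 and Hspa8, a DnaJ protein and the Hsp70 of the cytosol, fell in HCN4F-Sham, to 0.466 and 0.745 of the level of WT-Sham. The inducible Hsp70 genes Hspa1a and Hspa1b had the lowest fold values of all members, 0.116 and 0.0590, but did not pass the test. In all, 2 of 55 members passed after adjustment over all genes, 0 higher and 2 lower. Dnajb1 was the only member called, a call being an adjusted p under 0.05 with a log2 fold change above 1 or below -1. Of all tested genes, 0.085% were called higher and 0.124% lower in this comparison, and 0.229% passed higher and 0.242% lower on the adjusted p alone. The median log2 fold change was -0.10 over the 55 members and 0.00485 over all genes. The summed ventricular cardiomyocyte markers were also lower in every HCN4F-Sham library than in every WT-Sham library, and 6 of 7 had a lower value, with 0 passing. Their part in the chaperone results was not tested.

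Dnajb1 encodes the DnaJ protein that works with the inducible Hsp70 in the cytosol (ENSMUSG00000005483, chr8:83608193-83612653 on GRCm38). Its levels were 20.5, 31.2, 44.6 and 30.1 CPM in WT-Sham replicates 1 to 4 and 13.5, 15.3, 15.4 and 14.8 CPM in HCN4F-Sham. Every HCN4F-Sham library lay below every WT-Sham library, and the HCN4F-Sham values were tightly grouped. Dnajb1 fell by 1.10 on the log2 scale (SE 0.19, Benjamini-Hochberg adjusted p = 0.0214 by the quasi-likelihood test of edgeR). Without WT-Sham replicate 3 the log2 fold change was -0.89 with an adjusted p of 0.0244, so that the test was still passed but not the fold threshold. The adjusted p rose above 0.05 when WT-Sham replicate 2 (0.0608) or 4 (0.0608), or HCN4F-Sham replicate 2 (0.0579), 3 (0.0659) or 4 (0.0657), was left out.

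Hspa8 (ENSMUSG00000015656, chr9:40800984-40810087) is the constitutive cytosolic Hsp70 and the most abundant Hsp70 transcript here. Its levels were 905, 955, 1116 and 1130 CPM in WT-Sham and 760, 712, 731 and 857 CPM in HCN4F-Sham. The groups did not overlap, although the highest HCN4F-Sham library came close to the lowest WT-Sham library. Hspa8 fell by 0.42 on the log2 scale (SE 0.08, adjusted p = 0.0352). The adjusted p was 0.125 without WT-Sham replicate 3, 0.0687 and 0.146 without WT-Sham replicates 2 and 4, and 0.0709 and 0.0820 without HCN4F-Sham replicates 2 and 3.

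Hspa1a (ENSMUSG00000091971) and Hspa1b (ENSMUSG00000090877) encode the major stress-inducible Hsp70 and lie near each other at chr17:34969190-34972156 and chr17:34956436-34959238. Hspa1a had 6.39, 15.1, 69.2 and 17.1 CPM in WT-Sham and 3.76, 2.37, 2.02 and 4.17 CPM in HCN4F-Sham. Hspa1b had 7.47, 26.99, 125 and 25.3 CPM in WT-Sham and 3.84, 2.15, 1.84 and 2.99 CPM in HCN4F-Sham. For both genes all HCN4F-Sham libraries were below all WT-Sham libraries, but WT-Sham ranged 10.8-fold for Hspa1a and 16.8-fold for Hspa1b from its lowest to its highest library. The log2 fold changes were -3.11 (SE 0.81, adjusted p = 0.124) for Hspa1a and -4.08 (SE 0.93, adjusted p = 0.0871) for Hspa1b, and neither passed. Without WT-Sham replicate 3 they were -2.05 (adjusted p = 0.209) and -2.87 (adjusted p = 0.125). The 2 genes are near-identical copies: 58.8% of the 50-base windows of the Hspa1a transcript occur in that of Hspa1b, so the split of reads between them is uncertain. Their sum was 13.9, 42.1, 195 and 42.4 CPM in WT-Sham and 7.60, 4.52, 3.87 and 7.16 CPM in HCN4F-Sham, with a log2 fold change of -3.65 (SE 0.86, adjusted p = 0.0967) and of -2.49 (adjusted p = 0.151) without WT-Sham replicate 3.

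Hspa1l, the third gene of the locus, had overlapping levels (log2 fold change -0.34, SE 0.19, adjusted p = 0.403). Dnaja1, Dnaja4, Hsph1 and Hsp90aa1 had lower mean levels in HCN4F-Sham without passing the test. The same held for Hspa12a and Dnajb13, with -0.46 and -0.87 on the log2 scale and groups that overlapped. Dnaja1, a farnesylated DnaJ partner of cytosolic Hsp70, had 84.7, 124, 204 and 138 CPM in WT-Sham and 79.1, 57.2, 58.7 and 80.2 CPM in HCN4F-Sham, with a log2 fold change of -0.999 (SE 0.25, adjusted p = 0.0985). Its groups did not overlap. Hsph1, the inducible Hsp110 exchange factor, had 66.7, 88.1, 164 and 105 CPM in WT-Sham and 58.2, 41.2, 45.1 and 72.5 CPM in HCN4F-Sham, with -0.96 on the log2 scale (SE 0.25, adjusted p = 0.115) and groups that overlapped. Hsp90aa1, the inducible Hsp90, had 137, 168, 297 and 216 CPM in WT-Sham and 142, 92.2, 102 and 164 CPM in HCN4F-Sham, with -0.71 on the log2 scale (SE 0.23, adjusted p = 0.188). Dnaja4, a further DnaJ protein of the same class, had 77.1, 93.4, 105 and 89.4 CPM in WT-Sham and 61.3, 52.6, 70.6 and 75.4 CPM in HCN4F-Sham. Its groups did not overlap, and its log2 fold change was -0.49 (SE 0.12, adjusted p = 0.0648). Without WT-Sham replicate 3 the values were -0.75 for Dnaja1, -0.68 for Hsph1, -0.47 for Hsp90aa1 and -0.41 for Dnaja4, with adjusted p-values of 0.198 to 0.369. Dnaja4 and Hspa8 lie on chromosome 9, at 4.11 and 18 Mb from Hcn4. An effect of the edited allele and of sequence linked to it cannot be told apart for such genes.

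DESeq2 fitted on all groups called more members in the same libraries. By that test 7 members passed and all had negative fold changes, namely Dnaja1, Dnaja4, Dnajb1, Hspa1a, Hspa1b, Hspa8 and Hsph1, and 4 of them were called lower. Of the 13510 genes to which DESeq2 gave an adjusted p, 1.24% passed higher and 1.44% lower, and 0.222% were called higher and 0.237% lower. The adjusted p by DESeq2 was 3.08e-05 for Hspa1b and 0.00187 for Hspa1a, against 0.0871 and 0.124 by edgeR. By edgeR, 16 of the 55 members (29.1%) had an unadjusted p under 0.05 in this comparison, as had 15.2% of all tested genes.

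The spread in WT-Sham was itself unequal among the members. On the log2 scale, the SD over the 4 WT-Sham libraries was 1.67 for Hspa1b, 1.42 for Hspa1a, 0.54 for Hsph1, 0.52 for Dnaja1, 0.48 for Hsp90aa1 and 0.46 for Dnajb1. The median was 0.111 over 54 members and 0.112 over the 12558 genes with a mean of at least 1 CPM and no count of 0. In HCN4F-Sham the SD was 0.48 for Hspa1b, 0.50 for Hspa1a, 0.37 for Hsph1, 0.27 for Dnaja1, 0.39 for Hsp90aa1 and 0.0878 for Dnajb1. The median there was 0.177 over the 12558 genes. WT-Sham replicate 3 was the highest and replicate 1 the lowest library for Hspa1a, Hspa1b, Dnajb1, Dnaja1, Hsph1 and Hsp90aa1 alike. That order was seen in 21 of 55 members (38.2%) and in 14.6% of all tested genes, a count made after the values were seen.

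**Figure D3:**
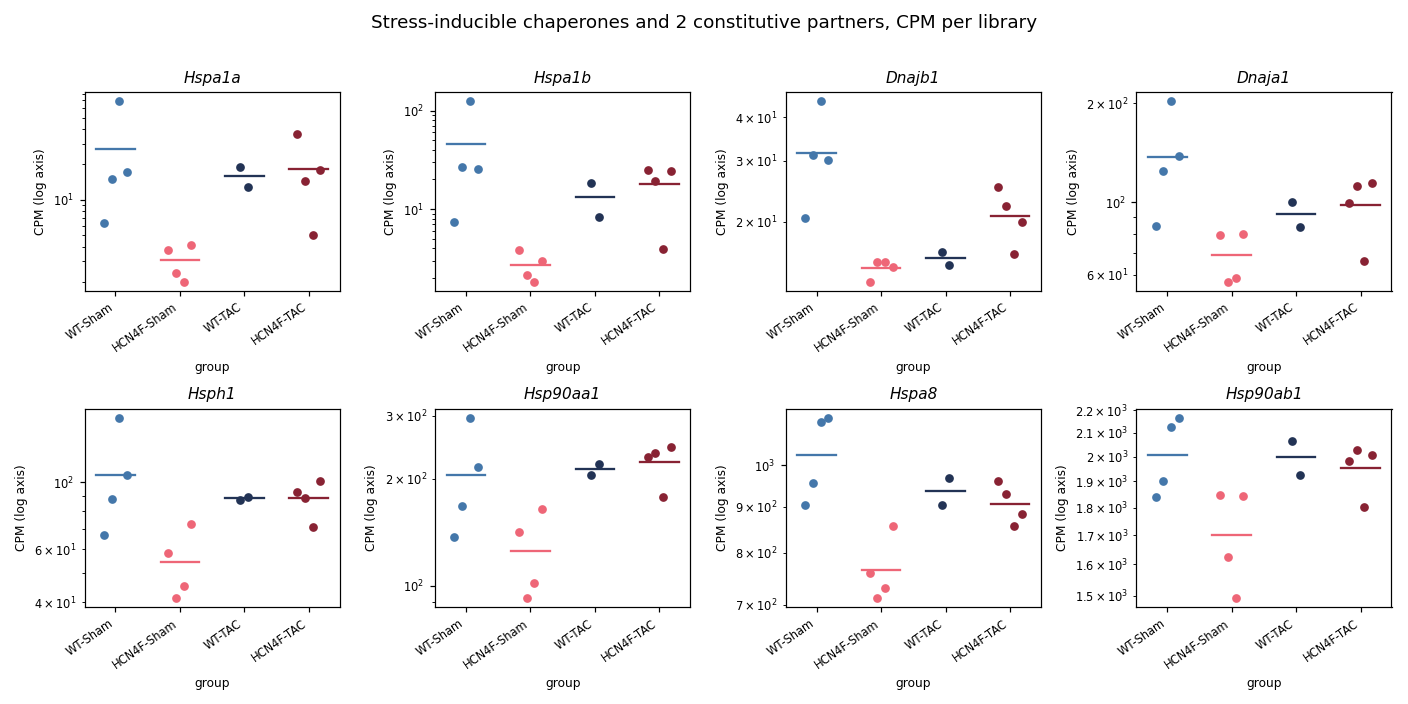
CPM per library on a log axis for Hspa1a, Hspa1b, Dnajb1, Dnaja1, Hsph1, Hsp90aa1, Hspa8 and Hsp90ab1. Each point is 1 library and each bar the group mean, with n = 4 in WT-Sham, HCN4F-Sham and HCN4F-TAC and n = 2 in WT-TAC. The HCN4F-Sham libraries lay lowest for Hspa1a and Hspa1b, at 2.02 to 4.17 and 1.84 to 3.84 CPM, and 1 WT-Sham library, replicate 3, lay highest in the first 6 panels.

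Most other members did not differ between the Sham groups by more than their spread. Of the 55 members, 44 had a log2 fold change between -0.3 and 0.3, among them all 24 Dnajc genes. Hsp90ab1 had 1840, 1901, 2124 and 2168 CPM in WT-Sham and 1847, 1626, 1492 and 1842 CPM in HCN4F-Sham, groups that overlapped (log2 fold change -0.24, adjusted p = 0.191). Hspa9 had a log2 fold change of -0.12 (95% interval -0.29 to 0.04), Hspd1 of -0.19 (-0.35 to -0.03, adjusted p = 0.251) and Hspe1 of -0.11 (-0.30 to 0.08). Dnajb9 and Dnajc3, targets of the unfolded protein response in the endoplasmic reticulum, had log2 fold changes of 0.12 (adjusted p = 0.71) and -0.04 (adjusted p = 0.850). By role, values were higher for 13 of 24 Dnajc, 2 of 10 Dnajb, 1 of 4 Dnaja, 1 of 4 atypical or non-cytosolic Hsp70 and 1 of 3 other cytosolic Hsp70 genes. They were higher for 0 of the 3 Hsp110 genes, the 3 genes of the Hspa1 locus (Hspa1a, Hspa1b and Hspa1l), the 2 Hsp90 and the 2 chaperonin genes. That makes 18 of 55 members, against 51.1% of all tested genes. In all, 7 members lay lower in every HCN4F-Sham library than in every WT-Sham library (Dnaja1, Dnaja4, Dnajb1, Dnajc30, Hspa1a, Hspa1b and Hspa8) and 0 lay higher, which is 12.7% and 0% of 55. Over all tested genes these shares were 4.67% and 3.89%.

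Among 43 further genes of the pathway, 0 passed in either direction between the Sham groups by edgeR, and 38 of 43 had a lower value in HCN4F-Sham, with a median log2 fold change of -0.12. Hsf1, the master regulator, had a log2 fold change of -0.21 (adjusted p = 0.216). Ahsa2, an activator of Hsp90, had the value -0.52 (adjusted p = 0.0640). All 8 subunits of the cytosolic chaperonin had lower values, with a median of -0.16.

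Lists of immediate early, clock and cold-inducible genes were read as signs of the state of the tissue. Of 14 immediate early genes, 5 passed higher in HCN4F-Sham (Egr1, Egr3, Fos, Ier2 and Junb) and 0 lower. Egr1, a transcription factor induced within minutes of a stimulus, had 9.56 to 18.5 CPM in WT-Sham and 109 to 206 CPM in HCN4F-Sham, a log2 fold change of 3.65 (SE 0.31). WT-Sham was the group that stood apart, since Egr1 had 109 to 257 CPM in all libraries of the other 3 groups. The summed list ranged from 350 to 389 CPM in WT-Sham and from 514 to 783 CPM in HCN4F-Sham. Of 13 clock genes 0 passed, but HCN4F-Sham replicates 2 to 4 differed from the other Sham libraries. The clock gene Arntl had 12.8 to 15.6 CPM in WT-Sham and 14.9, 5.11, 1.77 and 1.54 CPM in HCN4F-Sham replicates 1 to 4, and Dbp had 14.3 to 32.5 CPM in WT-Sham and 10.5, 99.3, 147 and 107 CPM in HCN4F-Sham. HCN4F-Sham replicate 1 had Arntl and Dbp levels like or below those of WT-Sham. This 1 library had 13.5 CPM of Dnajb1, the lowest of HCN4F-Sham, and 3.84 CPM of Hspa1b, the highest, both below every WT-Sham library. Without it the log2 fold changes of Dnajb1 and Hspa8 were -1.06 (adjusted p = 0.0205) and -0.42 (adjusted p = 0.0212) by edgeR. That fit holds HCN4F-Sham replicates 2 to 4, which differed in the clock genes, so it cannot separate a change of these genes from the genotype. Both cold-inducible genes listed (sum 53.0 to 63.2 CPM in WT-Sham and 54.4 to 65.4 CPM in HCN4F-Sham) did not pass. The part of the immediate early and clock genes in the chaperone results was not tested.

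The second comparison asked how the chaperones responded to pressure overload in WT hearts, where n = 2 after TAC. By edgeR, 3 members rose and 1 fell, while 51 did not pass. Dnajb1 was called lower, and 0 members were called higher. Of all tested genes, 0.445% were called higher and 0.262% lower, and 2.92% passed higher and 1.62% lower on the adjusted p alone. The median log2 fold change was 0.04 over the members and -0.0231 over all genes. With only 2 libraries in WT-TAC the groups were separate for many genes: 19 members (34.5%) lay higher in both WT-TAC libraries and 7 (12.7%) lower, against 19.2% and 20% of all tested genes. In the same comparison 7 of 14 immediate early genes passed higher and 0 lower, with a median log2 fold change of 1.10, and their sum went from 350 to 389 CPM in WT-Sham to 614 and 847 CPM in WT-TAC. Of the ventricular cardiomyocyte markers, Actn2 passed higher and Tnni3 and Tnnt2 lower, and 0 of 6 fibroblast markers passed. Their part in the chaperone results, the fall of Dnajb1 included, was not tested.

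Dnajb1 had 16.4 and 15.1 CPM in WT-TAC, below the 20.5 to 44.6 CPM of WT-Sham and near the level of HCN4F-Sham. It fell by 1.01 on the log2 scale (SE 0.24, adjusted p = 0.0319). Leaving out WT-Sham replicate 3 gave -0.80 (adjusted p = 0.0332), and leaving out WT-TAC replicate 2 or 3 gave adjusted p-values of 0.119 and 0.275. The adjusted p was 0.0529 and 0.0735 without WT-Sham replicates 2 and 4. Dnajb1 was therefore called lower against a WT-Sham group whose own values ranged 2.18-fold. By DESeq2 on all groups its log2 fold change was -0.997, which passed the test but just missed the fold threshold of a call.

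The 3 members that rose stayed below the fold threshold of 1 on the log2 scale. Hspa1l (ENSMUSG00000007033, chr17:34972703-34979285), an Hsp70 best known from testis, had 2.77, 3.70, 4.13 and 4.08 CPM in WT-Sham and 4.97 and 7.36 CPM in WT-TAC, a log2 fold change of 0.76 (SE 0.21, adjusted p = 0.0479). Dnajc27, a DnaJ protein with a GTPase domain, had 11.5, 12.1, 13.2 and 10.9 CPM in WT-Sham and 16.3 and 19.8 CPM in WT-TAC, a log2 fold change of 0.60 (SE 0.14, adjusted p = 0.0287). Dnajc16, a membrane-bound DnaJ protein, had 31.2, 34.2, 32.9 and 30.8 CPM in WT-Sham and 42.0 and 44.5 CPM in WT-TAC, a log2 fold change of 0.42 (SE 0.11, adjusted p = 0.0364). The groups did not overlap for any of the 3. All 3 lost the test when WT-Sham replicate 1, 2 or 4 was left out (0.0519 to 0.125). Hspa1l and Dnajc16 also lost it without WT-Sham replicate 3 (0.0560 and 0.0535). Leaving out a WT-TAC library leaves 1 in that group, so that such a fit gives a size alone. Over the 23 alternative fits the log2 fold changes kept their sign. They ranged from 0.44 to 1.00 for Hspa1l, 0.45 to 0.74 for Dnajc27 and 0.38 to 0.46 for Dnajc16.

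The inducible Hsp70 pair had 18.9 and 12.8 CPM (Hspa1a) and 18.6 and 8.24 CPM (Hspa1b) in WT-TAC, within the range of WT-Sham. The log2 fold changes were -0.77 (SE 0.89, adjusted p = 0.656) and -1.80 (SE 1.03, adjusted p = 0.337). Both rested on WT-Sham replicate 3, without which the values were 0.29 (adjusted p = 0.8287) and -0.59 (adjusted p = 0.657), and the summed pair went from -1.33 to -0.17. Hsph1 had -0.26 (adjusted p = 0.658), and 0.03 without that library. Dnaja4 had 118 and 132 CPM in WT-TAC, above all WT-Sham libraries (log2 fold change 0.46, adjusted p = 0.0669, and 0.53 with 0.0492 without WT-Sham replicate 3), and Dnajb4, a cytosolic DnaJ protein, had 135 and 123 CPM against 80.1 to 109 CPM (0.44, adjusted p = 0.237). Hsp90aa1 had 205 and 219 CPM, a log2 fold change of 0.06 (95% interval -0.56 to 0.67), and of 0.29 (adjusted p = 0.505) without WT-Sham replicate 3. Dnaja1 went from -0.58 (adjusted p = 0.292) to -0.33 (adjusted p = 0.479) without it. The mitochondrial Hsp70 gene Hspa9 had 657 and 645 CPM against 611 to 695 CPM, a log2 fold change of -0.00 (-0.20 to 0.20). Dnajb5, a cytosolic DnaJ protein of muscle, had a log2 fold change of 0.28 (adjusted p = 0.359) and Dnajb9 of 0.27 (adjusted p = 0.338).

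The third comparison concerned the response to TAC in HCN4F hearts. By edgeR 10 members rose, 2 fell and 43 did not pass, and Hspa1l alone was called, as higher. Of all tested genes, 1.58% were called higher and 1.16% lower, and 7.2% passed higher and 6.41% lower on the adjusted p alone. The median log2 fold change was 0.09 over the members and -0.00666 over all genes. In all, 12 members (21.8%) lay higher in every HCN4F-TAC library than in every HCN4F-Sham library, and Dnajc4 and Dnajc19 (3.64%) lay lower, against 7.95% and 7.16% of all tested genes. The comparisons of TAC with Sham in WT and of HCN4F with WT in Sham share the WT-Sham libraries, and this one shares the HCN4F-Sham libraries with the comparison of the Sham groups.

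Among the Hsp70 genes, Hspa1l had 3.24, 2.56, 2.64 and 3.17 CPM in HCN4F-Sham and 8.96, 8.03, 5.40 and 6.71 CPM in HCN4F-TAC. The groups were well separated, and Hspa1l rose 2.49-fold, by 1.32 on the log2 scale (SE 0.18, adjusted p = 0.000198). It passed in all 23 alternative fits. Hspa1l lies head to head with Hspa1a, and 9.57% of its 50-base windows also occur in the Hspa1a transcript. Hspa1a had 36.1, 14.5, 5.02 and 17.8 CPM in HCN4F-TAC and Hspa1b had 25.0, 19.3, 3.96 and 24.5 CPM. All 4 libraries lay above the HCN4F-Sham libraries for both genes, although replicate 3 was close to them. The log2 fold changes were 2.55 (SE 0.82, adjusted p = 0.0641) and 2.73 (SE 0.93, adjusted p = 0.0785), and their sum gave 2.64 (SE 0.84, adjusted p = 0.0633). Without HCN4F-TAC replicate 3 both genes passed, with 2.86 (adjusted p = 0.0361) and 3.07 (adjusted p = 0.0463), and by DESeq2 on all groups they had adjusted p-values of 0.00381 and 0.00382.

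Hspa4 and Hspa4l, which exchange the nucleotide of Hsp70, both rose. Hspa4 had 158, 122, 156 and 150 CPM in HCN4F-Sham and 185, 191, 183 and 183 CPM in HCN4F-TAC, a log2 fold change of 0.34 (SE 0.09, adjusted p = 0.0146). Hspa4l had 45.5, 32.2, 44.7 and 45.8 CPM in HCN4F-Sham and 58.1, 58.6, 54.6 and 58.3 CPM in HCN4F-TAC, a log2 fold change of 0.45 (SE 0.13, adjusted p = 0.0289). The groups did not overlap for either gene. HCN4F-Sham replicate 2 was the lowest library for both, and without it Hspa4l no longer passed (0.34, adjusted p = 0.0691). Hspa4l also lost the test without HCN4F-TAC replicate 1 (0.0625), 2 (0.0697) or 4 (0.0641). The third gene of the group, Hsph1, had 93.0, 89.0, 71.0 and 101 CPM in HCN4F-TAC against 41.2 to 72.5 CPM, groups that overlapped by 1 library (0.70, SE 0.25, adjusted p = 0.0854).

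Of the Hsp90 genes, Hsp90aa1 rose, from 142, 92.2, 102 and 164 CPM in HCN4F-Sham to 230, 236, 177 and 246 CPM in HCN4F-TAC, without overlap. Its log2 fold change was 0.83 (SE 0.23, adjusted p = 0.0339). The test was no longer passed without HCN4F-Sham replicate 2 (adjusted p = 0.0913) or 3 (0.0847), or without HCN4F-TAC replicate 1 (0.0709), 2 (0.0824) or 4 (0.0785). Hsp90ab1 had 1982, 2026, 1802 and 2008 CPM in HCN4F-TAC, partly within the range of HCN4F-Sham (0.20, adjusted p = 0.122).

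Among the DnaJ genes, Dnaja4 and Dnajb4 had the largest rises that passed the test. Dnaja4 had 120, 108, 105 and 91.4 CPM in HCN4F-TAC, all above the 52.6 to 75.4 CPM of HCN4F-Sham, a log2 fold change of 0.71 (SE 0.12, adjusted p = 0.000955). Dnajb4 had 88.5, 60.3, 95.4 and 91.5 CPM in HCN4F-Sham and 193, 154, 117 and 116 CPM in HCN4F-TAC, a log2 fold change of 0.79 (SE 0.17, adjusted p = 0.00867). Both passed in all 23 alternative fits. Dnajb6, which keeps aggregation-prone proteins soluble in muscle, had 49.1, 46.6, 59.0 and 58.4 CPM in HCN4F-Sham and 61.7, 71.4, 63.9 and 62.8 CPM in HCN4F-TAC (log2 fold change 0.29, SE 0.08, adjusted p = 0.0289). Dnajb1 had 25.2, 22.2, 16.1 and 19.9 CPM in HCN4F-TAC, all above the 13.5 to 15.4 CPM of HCN4F-Sham, with 0.50 on the log2 scale (SE 0.19, adjusted p = 0.0949).

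Of the 24 Dnajc genes, 3 rose and 2 fell. Dnajc27 had 12.6, 10.4, 15.9 and 13.9 CPM in HCN4F-Sham and 17.8, 18.3, 19.7 and 15.7 CPM in HCN4F-TAC (log2 fold change 0.44, SE 0.12, adjusted p = 0.0203). Dnajc11, which belongs to the cristae organisation of mitochondria, rose from 60.8, 52.5, 55.03 and 51.4 CPM to 70.1, 77.1, 68.0 and 73.2 CPM (0.39, SE 0.08, adjusted p = 0.00514). Dnajc5, a chaperone of vesicle release, rose by 0.24 on the log2 scale (SE 0.07, adjusted p = 0.0240). Dnajc19, a subunit of the motor that imports proteins into mitochondria, fell by 0.26 on the log2 scale (SE 0.07, adjusted p = 0.0191), from 40.01, 38.3, 36.5 and 32.8 CPM to 29.7, 32.5, 30.5 and 30.5 CPM. Dnajc4 fell by 0.25 (SE 0.08, adjusted p = 0.0392), from 29.5, 25.5, 24.2 and 25.9 CPM to 21.7, 21.3, 23.3 and 22.1 CPM. The groups of Dnajc27 overlapped, those of the other 4 did not.

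Several of these small changes no longer passed the test when a single library was left out, although their log2 fold changes kept their sign. Over the 23 alternative fits these ranged from -0.29 to -0.19 for Dnajc4 and from -0.31 to -0.22 for Dnajc19. They ranged from 0.23 to 0.33 for Dnajb6, 0.20 to 0.26 for Dnajc5 and 0.71 to 0.99 for Hsp90aa1. Dnajc4 was the least stable and passed in 13 of 23 alternative fits, with adjusted p-values of up to 0.123. It did not pass without HCN4F-Sham replicate 1 (0.0996) or 4 (0.0634), HCN4F-TAC replicate 1 (0.0867), 2 (0.0958) or 4 (0.0812), or WT-Sham replicate 2 (0.0543). Dnajb6 and Dnajc5 passed in 18, Dnajc19 and Hspa4l in 19, Hsp90aa1 in 17 and Dnajc27 in 21 of the 23. Without HCN4F-Sham replicate 2, 7 members passed in place of 12, and without HCN4F-TAC replicate 1, 2 or 4 the numbers were 7, 6 and 8. Without WT-Sham replicate 1 or 3, which enter only through the shared estimate of the spread, 16 passed. Without replicate 3 these included Hspa1a (adjusted p = 0.0114), Hspa1b (0.0130), Hsph1 (0.0221) and Dnajb1 (0.0279), whose log2 fold changes stayed at 2.55, 2.74, 0.70 and 0.50. The mitochondrial members Hspa9, Hspd1 and Hspe1 had log2 fold changes of -0.00 (95% interval -0.17 to 0.16), -0.04 (-0.21 to 0.12) and -0.07 (-0.26 to 0.13) after TAC in HCN4F hearts. Markers of other cells moved in the same comparison: the fibroblast markers Col1a1, Col3a1 and Lum passed higher, by 1.14, 1.00 and 0.51 on the log2 scale, and of 7 ventricular cardiomyocyte markers 4 passed lower and 1 higher. The lymphocyte marker Cd79a (1.4996) and the skeletal muscle marker Tnnt3 (1.15) passed higher and the skeletal muscle marker Tnni2 passed lower (-1.21), at summed levels of at most 2.73 CPM for lymphocyte and 2.00 CPM for skeletal muscle markers in any library. Of 14 immediate early genes 6 passed higher and 0 lower, with a median of 0.47, and their sum went from 514 to 783 CPM in HCN4F-Sham to 749 to 1048 CPM in HCN4F-TAC. Of 13 clock genes 0 passed, with 5 values higher, 8 lower and a median of -0.22. The clock genes summed to 391 to 770 CPM in HCN4F-Sham and 359 to 593 CPM in HCN4F-TAC. The part of all these markers and genes in the chaperone results was not tested. By role, 4 of 4 Dnaja, 9 of 10 Dnajb, 2 of 2 Hsp90, 3 of 3 Hsp110 and 3 of 3 Hspa1 locus genes had a positive log2 fold change. The same held for 13 of 24 Dnajc genes, 2 of 3 other cytosolic Hsp70 genes, 1 of 4 atypical or non-cytosolic Hsp70 genes and 0 of 2 chaperonin genes. That makes 37 of 55 members, against 48.9% of all tested genes.

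**Figure D4:**
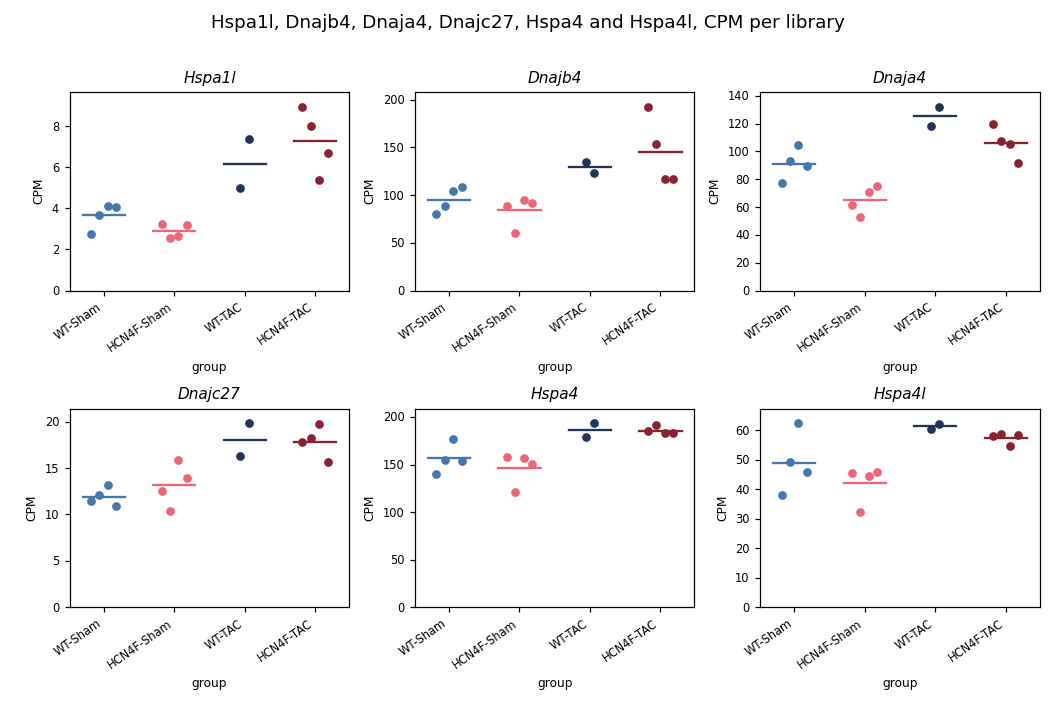
CPM per library on an axis from 0 for Hspa1l, Dnajb4, Dnaja4, Dnajc27, Hspa4 and Hspa4l. Each point is 1 library and each bar the group mean, with n = 4 in WT-Sham, HCN4F-Sham and HCN4F-TAC and n = 2 in WT-TAC. Hspa1l lay at 4.97 to 8.96 CPM in the 6 TAC libraries and at 2.56 to 4.13 CPM in the 8 Sham libraries.

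Among the 43 further genes of the pathway, 6 rose and 3 fell after TAC in HCN4F hearts, where 7.2% of all genes passed higher and 6.41% lower. After TAC in WT hearts, with n = 2, 0 passed, against 2.92% and 1.62% of all genes. The interaction passed 0 of the 43 by edgeR, so a difference between the genotypes was not shown. Bag2 and Bag3, nucleotide exchange factors of Hsp70, rose by 0.66 (SE 0.12, adjusted p = 0.00201) and 0.43 (SE 0.11, adjusted p = 0.0131) on the log2 scale. Ahsa2, the mitochondrial exchange factor Grpel2 and the chaperonin subunits Cct6a and Cct8 rose by 0.46, 0.32, 0.24 and 0.22. Sil1, Fkbp4 and Stub1, the last a ubiquitin ligase that binds Hsp70, fell by 0.33, 0.27 and 0.25. The median over the 43 genes was 0.04 in HCN4F hearts and -0.07 in WT hearts.

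The fourth comparison set HCN4F-TAC against WT-TAC, with n = 4 and n = 2. Of the 55 members, 0 passed by edgeR, 0 were called and 2 (3.64%) had an unadjusted p under 0.05, against 12.5% of all tested genes. DESeq2 on all groups also passed 0 members, and 1.49% of all genes. Of all tested genes, 0.0392% were called higher and 0.0327% lower, and 0.0589% passed higher and 0.0523% lower. The largest values were those of Hspa1b with 0.45 (95% interval -1.74 to 2.64), Hspa2 with 0.41 (0.05 to 0.77, adjusted p = 0.334) and Dnajb1 with 0.41 (-0.09 to 0.91). Hspa1a had 0.21 (-1.73 to 2.16) and the summed pair 0.33 (SE 0.93), so that the intervals of Hspa1a and Hspa1b reach past a log2 difference of 1 in both directions. Hspa8 had -0.05 (-0.26 to 0.17), Hsp90aa1 0.07 (-0.55 to 0.69), Hsph1 0.00 (-0.66 to 0.66) and Dnaja1 0.09 (-0.56 to 0.75). In this comparison 51 of 55 members lay between -0.3 and 0.3 on the log2 scale, and the median was -0.02. Dnajc10 and Hspa2 (3.64%) lay higher in every HCN4F-TAC library and Dnajc4, Dnajc16, Hspa4l and Hspa9 (7.27%) lower, against 11.3% and 11% of all tested genes.

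Whether TAC acted differently on the genotypes was tested as an interaction. By edgeR 0 of 55 members passed, 7 (12.7%) had an unadjusted p under 0.05, against 9.27% of all tested genes, and 0% of all tested genes passed, the smallest adjusted p of any gene being 0.168. Dnajb1 had the interaction 1.51 on the log2 scale (SE 0.30, 95% interval 0.86 to 2.15, adjusted p = 0.223), as it had 0.50 after TAC in HCN4F hearts and -1.01 in WT hearts. Every HCN4F-TAC library lay above every HCN4F-Sham library, and both WT-TAC libraries lay below every WT-Sham library. Hspa1b and Hspa1a had interactions of 4.53 (SE 1.41, adjusted p = 0.450) and 3.32 (SE 1.24, adjusted p = 0.481), and Dnaja1 and Hsph1 of 1.09 (adjusted p = 0.467) and 0.97 (adjusted p = 0.494). Without WT-Sham replicate 3 the interactions were 1.30 for Dnajb1, 3.32 for Hspa1b, 2.26 for Hspa1a, 0.84 for Dnaja1 and 0.68 for Hsph1, with adjusted p-values of 0.153 to 0.561. DESeq2 on all groups passed Dnajb1 (adjusted p = 0.000538) and Hspa1b (adjusted p = 0.0495), and 0.325% of the 12326 genes with an adjusted p. By edgeR, Dnajb1 passed without WT-Sham replicate 1 (1.67, adjusted p = 0.0311) or without HCN4F-TAC replicate 3 (1.61, adjusted p = 0.0337).

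**Figure D5:**
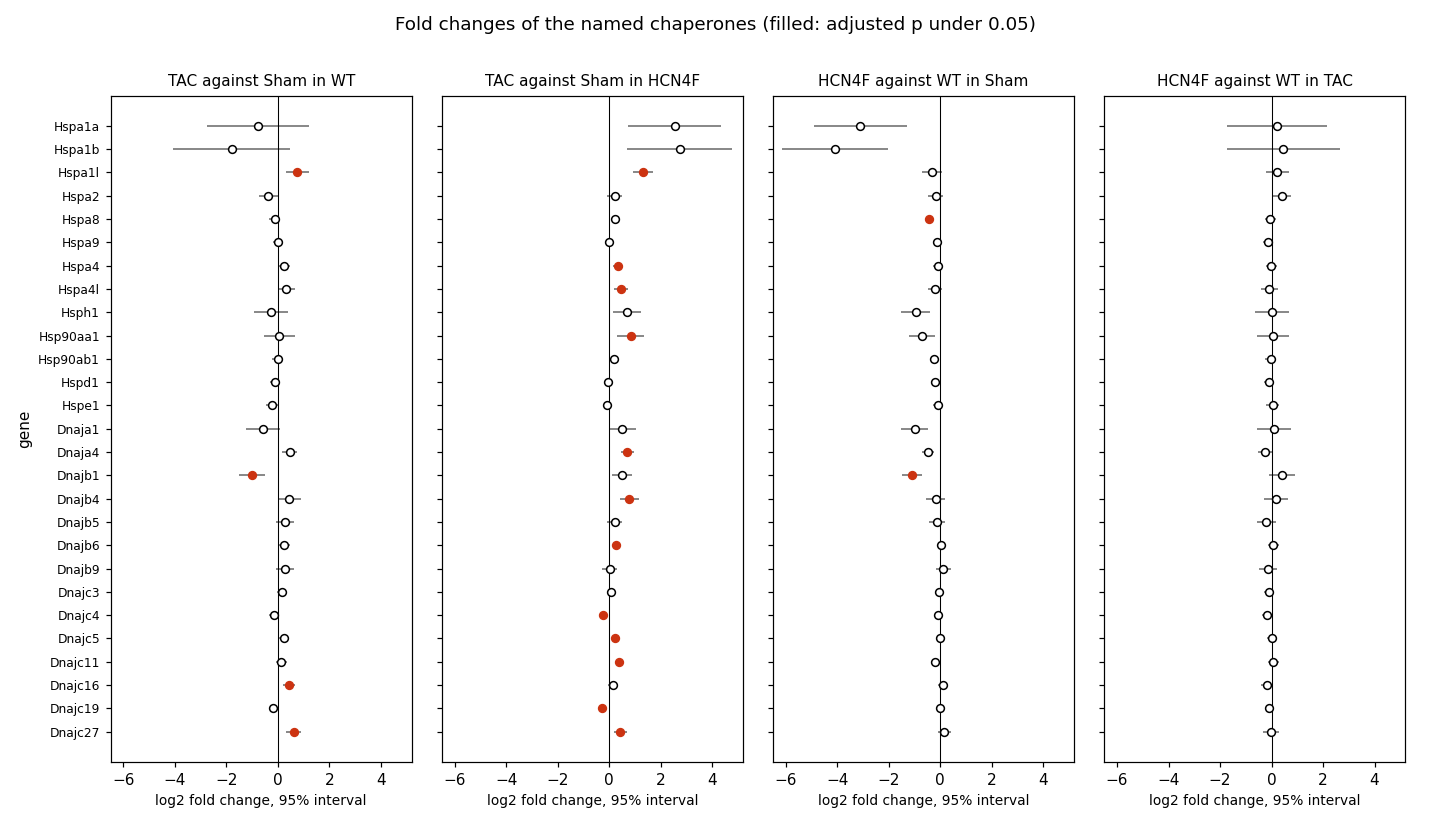
Log2 fold changes of 27 named chaperones in the 4 comparisons, from the edgeR fit of all groups, with 95% intervals as lines. Filled points have an adjusted p under 0.05 over all tested genes. The lines of Hspa1a and Hspa1b were the widest in every panel, and filled points numbered 4 in the WT, 12 in the HCN4F, 2 in the Sham and 0 in the TAC panel.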

How the data were processed

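RNA-seq of left ventricles was used from 14 of the 16 samples the study describes, and the authors deposited read counts per gene, named by Ensembl identifier and symbol. Per the submitters' processing notes the build was GRCm38. The aligner and the counting tool are not given in the sources used here, nor is the use of strand, so overlapping genes cannot be separated. Of the rows, 174 had no symbol, and 2 columns that no mapped sample explains were not used. Samples were grouped by the labels. Their titles also carry a number whose meaning is not given. It was higher in every WT than in every HCN4F library of the same surgery, and higher in WT-Sham than in WT-TAC. In these comparisons the effect of a group cannot be told apart from whatever the number marks. Counts were filtered (filterByExpr), scaled by TMM and fitted over all 4 groups with edgeR 4.0.16 (R 4.3.3), using the robust quasi-likelihood test. P-values were adjusted by Benjamini-Hochberg over 15292 genes. A call needed an adjusted p under 0.05 and a log2 fold change beyond 1, the thresholds of the study, and "passed" refers to the adjusted p alone. CPM are on the TMM scale without a pseudocount, and levels per kb use exon lengths of GENCODE mouse release 21. The test was checked on simulated data, with a log2 fold change of 2 up or down in genes above 1 CPM. There 195 to 200 of 200 changed genes were recovered per comparison among 15292, with 0 to 11 false calls. Smaller changes, such as most of those reported here, were not simulated. Precision is limited by 22309914 to 35210939 counts per library and by n = 2 in WT-TAC. Alternatives were DESeq2 1.42.0, other scalings and filters, a replicate block, fits on the compared groups alone and leaving out each library. Named genes were all members that passed, the 3 with the largest fold change per comparison, and 19 listed chaperones. The members and lists were chosen with earlier results of these data known. Figures were drawn with matplotlib 3.10.9.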

Additional observations from a re-analysis of the deposited data

Results flagged for a closer look

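A library far from the other 3 of its group was found in 6 of 81 groups of named genes, where chance gives about 1 in 20. Hspa1a and Hspa1b had 69.2 and 125 CPM in WT-Sham replicate 3, against 6.39 to 17.1 and 7.47 to 26.99 CPM in the other WT-Sham libraries. Hspa4l had 32.2 CPM in HCN4F-Sham replicate 2, against 44.7 to 45.8 CPM, and 54.6 CPM in HCN4F-TAC replicate 3, against 58.1 to 58.6 CPM. Dnajc5 had 65.7 CPM in HCN4F-Sham replicate 2, against 75.2 to 76.1 CPM, and Dnajb6 had 48.2 CPM in WT-Sham replicate 1, against 53.4 to 54.4 CPM. Dnajb1 was singled out for its TAC values: every HCN4F-TAC library lay above every HCN4F-Sham library and every WT-TAC library lay below every WT-Sham library, a difference of 1.51 on the log2 scale. The value in HCN4F alone (0.50, adjusted p = 0.0949) did not pass, and the interaction did not pass either by edgeR's quasi-likelihood test (adjusted p = 0.223).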

How the results depend on the processing

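No called value changed sign under the alternatives run, but the counts changed. Members called after TAC in WT numbered 1, but 0 with either DESeq2 fit, edgeR on the compared groups alone, DESeq2's size factors, no filter or the replicate block, and 4 on the adjusted p alone (0 to 1 leaving out a library). Members called after TAC in HCN4F numbered 1, but 3 with either DESeq2 fit, edgeR on the compared groups alone or no robust estimation, and 12 on the adjusted p alone (1 to 3). Members called between the Sham groups numbered 1, but 4 with either DESeq2 fit, 3 without robust estimation, 0 without the filter or with the replicate block, and 2 on the adjusted p alone (0 to 2). Counts on the adjusted p alone under the alternatives were added after seeing the data. They were 9 with DESeq2 on the compared groups and 0 with the block in WT (0 to 5), 10 to 16 in HCN4F (6 to 16 leaving out a library), and, between the Sham groups, 7 with either DESeq2 fit, 1 with edgeR on the compared groups, 4 without robust estimation and 0 with the block (0 to 4). The interaction passed 0 members, 2 with DESeq2 on all groups (0 to 1). Between the TAC groups every alternative passed 0.

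Same-numbered libraries of different groups did not deviate together more than others. Correlations were -0.12 to 0.159 over 18 pairs, 2 of them above 0.1, and -0.239 to 0.201 over 54 pairs of unlike number, 8 above 0.1. No pairing by replicate number was thus found, but the check cannot exclude one, as the deviations of 2 WT-TAC libraries mirror each other. The block gave 11 passing members in HCN4F. Hspa1l, Dnaja4, Dnajb4, Dnajc11 and Hspa4 passed after TAC in HCN4F under all 23 alternatives. The cause of these changes was not tested. At most 2 WT-TAC libraries enter any comparison, and leaving out 1 of them assumes that the lone library varies like the other groups. The summed pair without WT-Sham replicate 3 was added after seeing the data.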
